A study of Mus musculus with 23 samples.

Results

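The 10 genes followed here mark stress of the endoplasmic reticulum (ER): Hspa5, Hsp90b1, Pdia4, Sdf2l1, Creld2, Dnajb9, Herpud1, Xbp1, Atf4 and Ddit3. They were taken as all probes that carry these gene names on the array, which gave 18 probes of 10 genes among 37591 tested probes of 24176 gene names. Each gene is described by its brightest probe, and its other probes are given beside it. All 18 probes were above background on all 23 arrays and none was saturated. The question was whether the induction of cytochrome P450 enzymes, which are anchored in the ER membrane, went with a change in ER chaperones.

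Proteins that enter the ER are folded there by chaperones such as BiP, the product of Hspa5. When unfolded proteins accumulate, the unfolded protein response (UPR) starts from the membrane sensors IRE1, PERK and ATF6, which BiP otherwise holds inactive. IRE1 splices the Xbp1 mRNA, PERK favours translation of Atf4 and, through it, transcription of Ddit3, and ATF6 together with spliced XBP1 raises chaperone genes. In the intestine, secretory cells such as goblet, Paneth and plasma cells carry a large ER and rely on this system.

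The profiles came from the ileum of male mice, 1 array per mouse. Pregnenolone 16α-carbonitrile (PCN), a steroid that activates the rodent pregnane X receptor (PXR, gene Nr1i2), was given in corn oil by intraperitoneal injection at 100 mg/kg daily for 4 days, and control mice (CONT) received the oil. Mice were killed at ZT 6, 6 h after the last dose, with free access to food. The labels call this the fed state, and the study's text calls it semi-fasted. Groups were WT CONT (n = 6), WT PCN (n = 5), Pxr-/- CONT (n = 6) and Pxr-/- PCN (n = 6). The study allocated 6 mice to each group, and why WT PCN has 5 arrays is not given in the sources used here. The WT mice were C57BL/6J animals purchased at 6 weeks and acclimatized for 2 weeks, whereas the Pxr-/- mice, backcrossed on C57BL/6J, came from an in-house colony kept for 10 years, so that genotype and breeding origin cannot be told apart. The ages of the Pxr-/- mice are not given in the sources used here.

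Levels are log2 signals after quantile normalization, and differences are log2 changes. The median spot signal of an array was 74 to 106.5 on the linear scale, and 60.9% to 67.3% of probes were well above background. The ileal genes Fabp6 (18.1 to 18.7) and Slc10a2 (14.5 to 15.1) were above background on all 23 arrays, where the median of tested probes was 7.98. The Nr1i2 probe had means (± SD) of 12.13 ± 0.23 without and 12.19 ± 0.38 with PCN in WT, and of 11.72 ± 0.30 without and 11.71 ± 0.17 with PCN in Pxr-/-. These ranges overlapped, and Pxr-/- CONT against WT CONT was -0.41 (limma, adjusted p = 0.336), so this probe did not separate the genotypes. Whether it lies in the deleted part of the gene is not given in the sources used here. Arrays were washed in 2 batches, with 3, 2, 3 and 3 arrays of the groups in batch 1 and 3 of each in batch 2.

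Promoter sequences were examined first, since chaperone genes share stress elements that ATF6 and XBP1 bind. The 250 bases upstream of the RefSeq start (build GRCm38.p6) are shown for the 4 genes that held a match, in capitals where the motif lies. Hspa5 (chr2:34771840-34772089, plus strand), Hsp90b1 (chr10:86705445-86705694, minus strand) and Creld2 (chr15:88819396-88819645, plus strand) carry the ER stress element (ERSE, which is CCAAT, 9 bases of any kind and CCACG), and Herpud1 (chr8:94386179-94386428, plus strand) carries ERSE-II (ATTGG, 1 base of any kind and CCACG) and an amino acid response element (CARE, TGATGCAA), a motif bound by ATF4.
Hspa5: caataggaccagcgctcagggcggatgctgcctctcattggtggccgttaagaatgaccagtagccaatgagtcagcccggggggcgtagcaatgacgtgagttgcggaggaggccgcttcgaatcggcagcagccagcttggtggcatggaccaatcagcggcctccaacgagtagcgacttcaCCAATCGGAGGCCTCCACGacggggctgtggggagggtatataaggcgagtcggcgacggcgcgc
Hsp90b1: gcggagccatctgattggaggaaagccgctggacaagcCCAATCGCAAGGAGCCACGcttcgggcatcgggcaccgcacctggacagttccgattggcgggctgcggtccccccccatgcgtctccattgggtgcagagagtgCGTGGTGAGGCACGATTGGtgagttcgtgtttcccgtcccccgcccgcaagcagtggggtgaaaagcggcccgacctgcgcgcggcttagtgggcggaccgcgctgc
Creld2: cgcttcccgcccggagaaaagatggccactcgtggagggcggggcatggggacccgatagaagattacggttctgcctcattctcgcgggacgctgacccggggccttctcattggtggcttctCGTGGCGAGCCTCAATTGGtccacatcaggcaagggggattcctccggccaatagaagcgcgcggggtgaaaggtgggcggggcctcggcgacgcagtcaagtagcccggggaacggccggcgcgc
Herpud1: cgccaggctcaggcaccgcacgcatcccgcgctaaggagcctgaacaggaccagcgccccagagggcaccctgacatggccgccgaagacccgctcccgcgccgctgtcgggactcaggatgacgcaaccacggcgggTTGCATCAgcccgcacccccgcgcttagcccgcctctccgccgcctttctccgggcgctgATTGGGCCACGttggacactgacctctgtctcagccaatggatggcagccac

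The ERSE spanned bases -65 to -47 in Hspa5, -212 to -194 and -107 to -89 in Hsp90b1, and -126 to -108 in Creld2, counted from the transcription start. The second match in Hsp90b1 and the match in Creld2 were on the opposite strand, so their capitals read as the reverse complement. In Herpud1, ERSE-II lay at -52 to -42 and the CARE at -112 to -105, the latter on the opposite strand. Both strands of windows of 300 bases, 250 before and 50 after the start, were searched. The ERSE was found in 0.119% of the 32851 promoters in the table, ERSE-II in 0.0365% and the CARE in 0.895%. Among other ER chaperone genes with a promoter in the table, 5 of 16 held an ERSE (Calr, Canx, Pdia6, Dnajc3 and Ero1b) and 1 held ERSE-II (Dnajb11). The UPR element TGACGTGG, found in 0.676% of promoters, matched none of the 10 genes, and the promoters of Pdia4, Sdf2l1, Dnajb9, Xbp1, Atf4 and Ddit3 held none of these exact letters in this window. A match describes letters and not binding. The printed matches do not overlap one another.

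**Figure D1:**
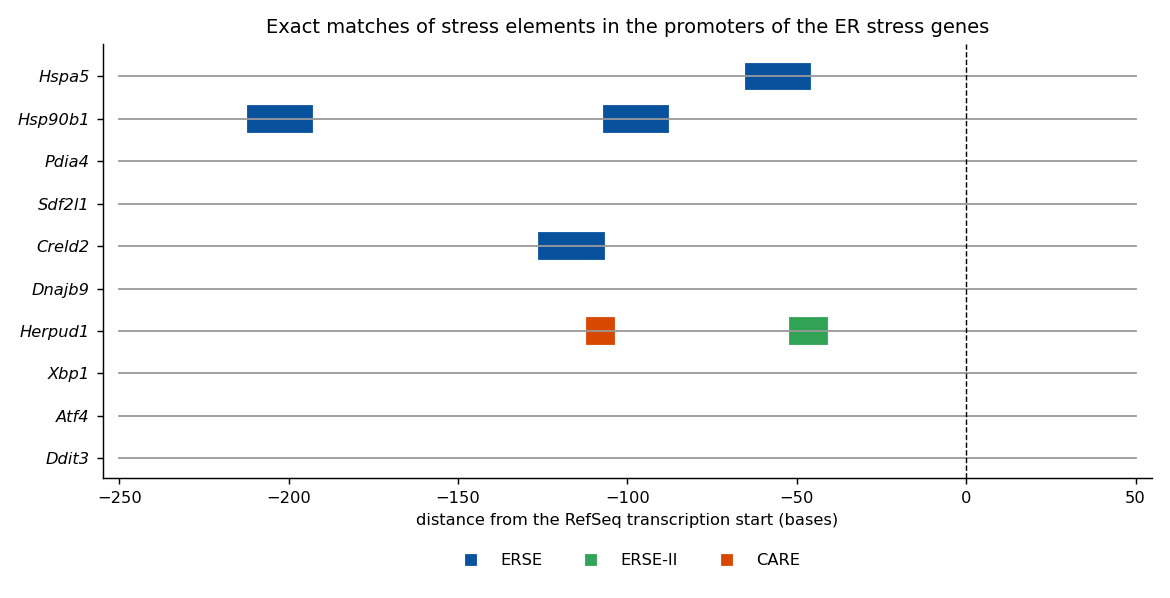
Exact matches of ERSE, ERSE-II and CARE in the promoters of the 10 ER stress genes, by distance in bases from the RefSeq transcription start (dashed line). Hspa5, Hsp90b1, Creld2 and Herpud1 hold a match within the 250 bases before the start, and the other 6 genes hold none.

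PCN raised the P450 genes in WT mice far more than in Pxr-/- mice. Cyp2b10, a drug-metabolizing P450, had a level of 6.00 to 7.86 in WT CONT and 10.35 to 12.88 in WT PCN, without overlap, and was raised by 4.61 (24.4-fold, SE 0.359, adjusted p = 9.52e-08). Cyp3a11, the classical PXR target, went from 6.94 to 9.47 in WT CONT to 11.01 to 12.51 in WT PCN, a rise of 3.53 (adjusted p = 1.21e-06). In Pxr-/- mice the differences were 0.72 for Cyp2b10 (adjusted p = 0.250), although all 6 PCN arrays lay above all 6 control arrays (the probe was above background on 5 of the latter), and -0.05 for Cyp3a11 (adjusted p = 0.947). The PCN effects differed between the genotypes by 3.89 for Cyp2b10 and 3.58 for Cyp3a11 (interaction, adjusted p = 0.000875 for each). Cyp2c55, an intestinal P450, rose by 3.51 in WT (adjusted p = 0.000155), and its difference in Pxr-/- was 1.58 (adjusted p = 0.0502), with an interaction of 1.93 (adjusted p = 0.787). In Pxr-/- Cyp2c55 was called in 7 of 15 alternative fits, among them that of the authors' table (1.58, limma, adjusted p = 0.0484). Over all 15 its Pxr-/- difference ran from 0.49 to 2.67. Without Pxr-/- PCN replicate 4 the Pxr-/- difference was 1.86 with an adjusted p of 0.0230. It crossed the threshold in the same way without any 1 of 7 other arrays (adjusted p of 0.0378 or above). These were WT CONT replicates 1 and 2, WT PCN replicates 1, 3 and 4, Pxr-/- CONT replicate 2 and Pxr-/- PCN replicate 6.

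Por, the reductase that passes electrons to P450s, rose by 0.62 in WT (adjusted p = 0.00292) and by 0.38 in Pxr-/- (adjusted p = 0.0415), the latter under the fold threshold of 1.5. In Pxr-/- the adjusted p of Por was at most 0.05 in 8 of 15 alternative fits and in 14 of 23 with an array left out. It was 0.0510 to 0.0989 with processed signal, median centring, no filter, array weights or the replicate block, 0.610 and 0.244 in the wash batches alone, and up to 0.112 without Pxr-/- CONT replicates 1, 2, 4, 5 or 6 or Pxr-/- PCN replicates 1, 2, 5 or 6. The fold change of Por in WT fell under 1.5 when replicate 4 of WT CONT (0.56) or replicate 2 of WT PCN (0.57) was dropped, and with median centring (0.57). In wash batches 1 and 2 alone its adjusted p in WT was 0.288 and 0.264 (limma). Of 16 tested genes of P450s and their electron supply, 16 were higher with PCN in WT and 12 were called, with a median of 1.78. Of all 24176 tested gene names, 183 were called higher in WT. In Pxr-/- 14 of the 16 were higher, with none called in the main fit and a median of 0.26. A Cyp2b or Cyp3a probe can also pick up mRNA of a close relative, which was not separated.

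Against this, none of the 10 ER stress genes was called in either genotype, where a call required adjusted p ≤ 0.05 together with fold change > 1.5. The background was 0.689% of tested probes called for PCN in WT and 0.939% in Pxr-/-. By adjusted p alone, which 1.29% of probes passed in WT and 3.57% in Pxr-/-, again none of the 10 passed (limma). In WT none passed in any of 15 alternative fits or without any of the 23 arrays. In Pxr-/- at least 1 passed in 7 of the 15, namely Pdia4 in all 7 (adjusted p of 0.0222 to 0.0473) and Hsp90b1 in 4 of them (0.0203 to 0.0480). There Pdia4 also passed without WT CONT replicate 3, WT PCN replicate 4 or Pxr-/- CONT replicate 2. Hspa5 (0.0499), Hsp90b1 (0.0340) and Creld2 (0.0388) did so without Pxr-/- CONT replicate 4. Without Pxr-/- PCN replicate 6 there were 5, which were Hspa5 (0.0434), Hsp90b1 (0.0399), Pdia4 (0.0316), Sdf2l1 (0.0422) and Creld2 (0.0316). At an unadjusted p of at most 0.05 there were 6 of the 10 genes in WT and 5 in Pxr-/-, where 11.8% and 19.5% of all tested probes were. In each genotype 7 genes were lower and 3 higher, with a median change of -0.16 in WT and -0.15 in Pxr-/-, whereas the medians over all 24176 tested gene names were -0.01 and 0.00. The 5 folding proteins had negative values in both genotypes, and Herpud1 had positive ones.

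**Figure D2:**
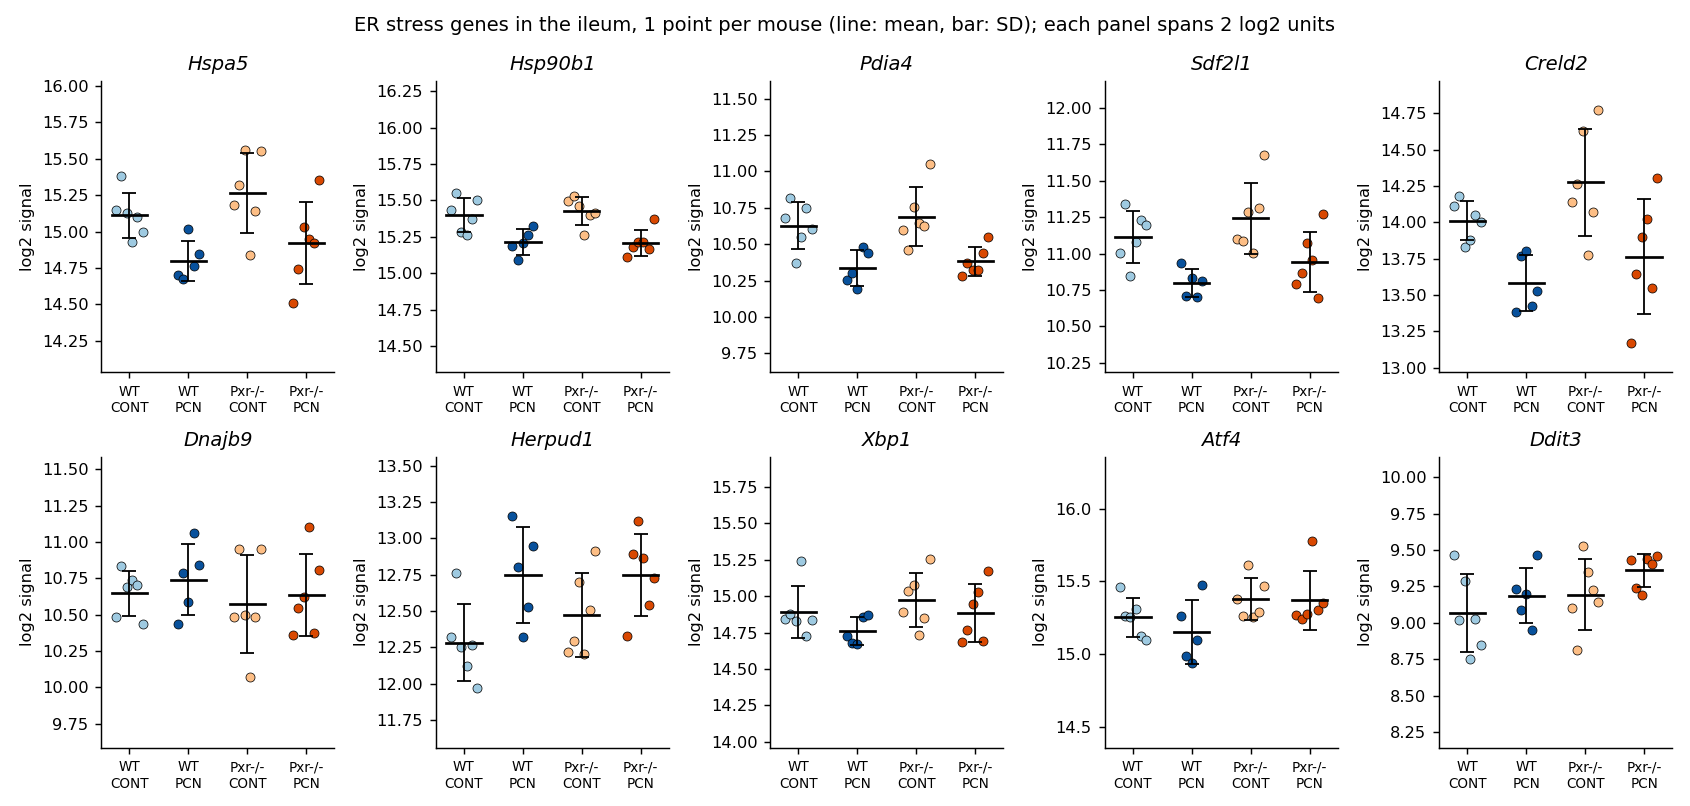
Log2 signal of the 10 ER stress genes in the ileum of each mouse (1 point per array; line, group mean; bar, SD; n = 6, 5, 6 and 6), with every panel spanning 2 log2 units. Hspa5, Hsp90b1, Pdia4, Sdf2l1 and Creld2 have lower means with PCN in both genotypes, with overlap between PCN and CONT mice in all but Creld2 of WT, and Herpud1 has higher means.

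Hspa5, the gene for BiP (brightest probe chr2:34631913-34631972, build mm9), had 14.93, 15.11 and 15.38 as its lowest, median and highest log2 level in WT CONT. In WT PCN the 5 levels were 14.70, 14.68, 15.02, 14.77 and 14.85, of which 4 lay below all controls. The difference was -0.31 (0.805-fold, SE 0.134, 95% interval -0.59 to -0.04, adjusted p = 0.340). In Pxr-/- CONT the lowest, median and highest were 14.84, 15.25 and 15.56, and in Pxr-/- PCN 14.51, 14.94 and 15.35. Here only 2 of 6 PCN arrays lay below all controls, since both groups spread widely, and the difference was -0.35 (SE 0.128, 95% interval -0.61 to -0.08, adjusted p = 0.132). The other probes of Hspa5 gave -0.31 and -0.29 in WT (adjusted p of 0.497 or above), and -0.51 and -0.50 in Pxr-/- (adjusted p = 0.0712 and 0.0713).

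Hsp90b1 codes for GRP94, the ER member of the HSP90 family (chr10:86153693-86153752). Its lowest, median and highest levels were 15.26, 15.40 and 15.55 in WT CONT, and its levels in WT PCN were 15.19, 15.09, 15.21, 15.26 and 15.33. Of these 3 lay below all controls and 1 was level with the lowest control at the precision given, and the difference was -0.18 (SE 0.0692, adjusted p = 0.257). The groups were tight, and in Pxr-/- PCN 5 of 6 arrays (15.11 to 15.37) lay below all of Pxr-/- CONT (15.26 to 15.53), for a difference of -0.22 (SE 0.0658, adjusted p = 0.0661).

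Pdia4 codes for ERp72, a disulfide isomerase (chr6:47746516-47746575). Its lowest, median and highest levels were 10.37, 10.64 and 10.82 in WT CONT, and its levels in WT PCN were 10.26, 10.31, 10.19, 10.48 and 10.44, with 3 of 5 below all controls. The differences were -0.30 in WT (SE 0.0921, adjusted p = 0.131) and -0.31 in Pxr-/- (SE 0.0876, adjusted p = 0.0530). In Pxr-/- PCN 5 of 6 arrays (10.28 to 10.55) lay below all of Pxr-/- CONT (10.46 to 11.05). These were the lowest adjusted p values among the 10 genes in each genotype.

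Sdf2l1 codes for a partner of ER chaperone complexes (chr16:17130426-17130485). Its levels in WT PCN were 10.93, 10.71, 10.83, 10.70 and 10.81 against 10.84, 11.14 and 11.34 as lowest, median and highest of WT CONT, and 4 of 5 lay below all controls. The differences were -0.33 in WT (SE 0.114, adjusted p = 0.207) and -0.30 in Pxr-/- (SE 0.109, adjusted p = 0.122), where 4 of 6 PCN arrays lay below all controls.

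Creld2, which codes for a stress-inducible ER protein with disulfide isomerase activity (chr15:88656997-88657056), had the largest decrease among the brightest probes of the 10 genes in both genotypes. In WT its levels were 13.38, 13.77, 13.81, 13.43 and 13.53 with PCN, against 13.83, 14.03 and 14.18 as lowest, median and highest of the controls. The groups did not overlap, though the nearest arrays were close, and the difference was -0.43 (0.743-fold, SE 0.174, adjusted p = 0.307). How many of all tested probes had no overlap was not counted, so this is a description only. In Pxr-/- the lowest, median and highest were 13.78, 14.20 and 14.77 without PCN and 13.17, 13.77 and 14.30 with it, for a difference of -0.51 (0.703-fold, SE 0.165, adjusted p = 0.0864). Only 3 of 6 PCN arrays lay below all controls in that genotype. Without Pxr-/- CONT replicate 4 the difference was -0.61 (adjusted p = 0.0388), and without Pxr-/- PCN replicate 6 it was -0.62 (adjusted p = 0.0316), so that Creld2 was then called.

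Herpud1 codes for a membrane protein of ER-associated degradation (chr8:96919117-96919176) and had the opposite sign. Its levels in WT PCN were 13.15, 12.80, 12.32, 12.53 and 12.95, against 11.97, 12.26 and 12.76 as lowest, median and highest of WT CONT. All 5 lay above the control mean and 3 above all controls, and the difference was 0.45 (1.36-fold, SE 0.158, adjusted p = 0.209). In Pxr-/- the lowest, median and highest were 12.20, 12.40 and 12.91 without PCN and 12.33, 12.80 and 13.12 with it, with a difference of 0.27 (95% interval -0.04 to 0.58, adjusted p = 0.324). Its second probe gave 0.52 in WT (adjusted p = 0.248) and 0.12 in Pxr-/- (adjusted p = 0.756).

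The remaining 4 genes had small differences. Dnajb9, a BiP co-chaperone and target of spliced XBP1 (chr12:45307071-45307129), differed by 0.10 in WT (95% interval -0.22 to 0.41, adjusted p = 0.879) and by 0.06 in Pxr-/- (-0.24 to 0.36, adjusted p = 0.858). Its levels were 10.44 to 10.84 in WT CONT, 10.44 to 11.06 in WT PCN, 10.07 to 10.95 in Pxr-/- CONT and 10.36 to 11.10 in Pxr-/- PCN, so that all groups overlapped. The second Dnajb9 probe gave 0.07 and -0.08.

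Xbp1, the transcription factor activated by IRE1 splicing (chr11:5425816-5425875), differed by -0.14 in WT (95% interval -0.35 to 0.08, adjusted p = 0.680) and by -0.09 in Pxr-/- (-0.30 to 0.12, adjusted p = 0.670). Its levels were 14.73 to 15.24 in WT CONT, 14.67 to 14.87 in WT PCN, 14.74 to 15.25 in Pxr-/- CONT and 14.69 to 15.17 in Pxr-/- PCN. Splicing of the mRNA was not analysed here. Its other probes gave -0.12 and -0.22 in WT, and -0.17 and -0.14 in Pxr-/-.

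Atf4, the transcription factor downstream of PERK (chr15:80087902-80087961), differed by -0.11 in WT (95% interval -0.33 to 0.12, adjusted p = 0.770) and by -0.01 in Pxr-/- (-0.22 to 0.20, adjusted p = 0.979). Since PERK acts on its translation, an mRNA level does not measure that step. Its levels spanned 14.94 to 15.78 over all groups. Ddit3, which codes for the transcription factor CHOP (chr10:126731579-126731638), differed by 0.12 in WT (95% interval -0.14 to 0.39, adjusted p = 0.781) and by 0.17 in Pxr-/- (-0.09 to 0.42, adjusted p = 0.477), with levels of 8.75 to 9.53 over all groups. The second probes gave -0.05 and -0.08 for Atf4, and -0.04 and 0.11 for Ddit3.

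**Figure D3:**
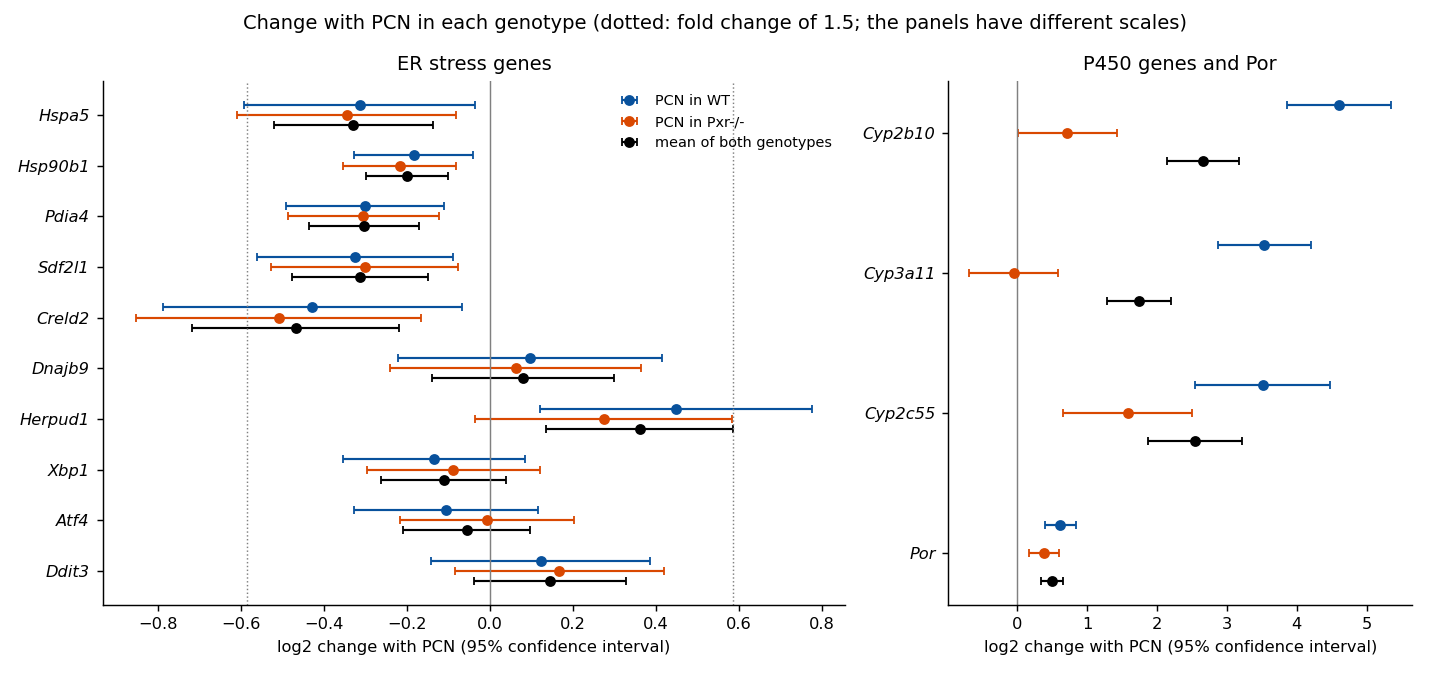
Log2 change with PCN in WT mice (blue), in Pxr-/- mice (orange) and as the mean of both (black), with 95% confidence intervals from limma, for the 10 ER stress genes (left) and for the P450 genes and Por (right, on a wider scale). The dotted lines mark a fold change of 1.5. The blue and orange points of each ER stress gene lie close together, whereas those of Cyp2b10 and Cyp3a11 lie 3.89 and 3.58 apart.

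The PCN effects on the 10 genes did not differ detectably between the genotypes. The interaction ranged from -0.10 for Atf4 to 0.17 for Herpud1, with an adjusted p of 0.999 for each gene, none of the 10 called and no unadjusted p below 0.431 (limma). Over all tested probes 0.0771% were called in the interaction, 0.0825% passed by adjusted p alone and 4.49% had an unadjusted p of at most 0.05. For Hspa5 the difference between the effects was 0.03 with a 95% interval of -0.35 to 0.42, and for Creld2 it was 0.08 with an interval of -0.42 to 0.58. These intervals are wider than the effects themselves, so that effects of unequal size cannot be told apart at this number of arrays.

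Genotype alone gave no calls among the 10 genes either. Without PCN the Pxr-/- minus WT differences ran from -0.07 for Dnajb9 to 0.26 for Creld2 (adjusted p = 0.718), against a background of 0.141% of probes called and 0.215% by adjusted p alone (limma). With PCN they ran from -0.11 for Dnajb9 to 0.22 for Atf4, against 0.364% and 0.622%. These ranges are of the brightest probes, and the second Herpud1 probe had 0.24 without and -0.15 with PCN. Before adjustment the lowest p was 0.125 without PCN (Creld2) by limma, where 8.88% of probes were at or under 0.05. With PCN it was 0.0478 by limma (Atf4, adjusted p = 0.702), the single gene of the 10 under 0.05, where 7.07% of probes were. Values were higher in Pxr-/- than in WT for 9 of the 10 without PCN (median 0.13) and 8 with PCN (median 0.12). Of the other ER chaperones and folding enzymes, 18 of 20 and 12 of 20 were higher. Over all 24176 tested gene names 12077 and 12904 were higher.

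Since both genotypes gave similar values, the mean of both PCN effects was tested in the same fit, a comparison chosen after these values had been seen. None of the 10 genes was called with the fold threshold, where 0.931% of probes were. By adjusted p alone 6 of the 10 passed, where 8.9% of probes did, and before adjustment 6 had a p of 0.05 or less, where 24.1% of probes did. Lower with PCN were Pdia4 (-0.30, SE 0.0636, adjusted p = 0.00462), Hsp90b1 (-0.20, SE 0.0478, 0.0111), Sdf2l1 (-0.31, SE 0.0787, 0.0156), Creld2 (-0.47, SE 0.120, 0.0175) and Hspa5 (-0.33, SE 0.0925, 0.0289), while Herpud1 was higher (0.36, SE 0.109, 0.0406). The 3 probes of Hspa5 gave -0.33, -0.41 and -0.39 and all passed, with an adjusted p of 0.0289, 0.0289 and 0.0292. The second Herpud1 probe gave 0.32 (adjusted p = 0.137). Across the 15 alternative fits Herpud1 had 0.30 to 0.42, with an adjusted p of at most 0.05 in only 7 (limma). It did not pass with processed signal (0.0709), median centring (0.118), no filter (0.0594), slide as a fixed block (0.0946) or the mean of its probes (0.0674). The other 4 genes had 0.08 (Dnajb9, adjusted p = 0.702), -0.11 (Xbp1, 0.367), -0.06 (Atf4, 0.694) and 0.14 (Ddit3, 0.334).

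The values of these decreases differed between the wash batches. For the mean over both genotypes, batches 1 and 2 gave -0.14 and -0.50 for Hspa5, -0.16 and -0.24 for Hsp90b1, and -0.19 and -0.41 for Pdia4. For Sdf2l1 they gave -0.17 and -0.45, for Creld2 -0.21 and -0.72, and for Herpud1 0.37 and 0.32. The 5 folding genes kept their sign in both batches, with larger values in batch 2. By adjusted p alone, 0 of the 10 genes passed in batch 1 and 3 in batch 2, namely Creld2 (0.0247), Pdia4 (0.0359) and Hspa5 (0.0453). The values differed most in Pxr-/-, where Hspa5 had -0.08 in batch 1 and -0.61 in batch 2 and Creld2 -0.05 and -0.97, whereas in WT Hspa5 had -0.20 and -0.39 and Creld2 -0.37 and -0.48. Whether the effects differ between batches was not tested.

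Leaving out single arrays mattered for Hspa5 and Herpud1. The adjusted p of Hspa5 became 0.0558 once replicate 2 of WT CONT was dropped (-0.30), 0.0534 when replicate 2 of WT PCN was dropped (-0.31), 0.0547 when replicate 6 of Pxr-/- CONT was dropped (-0.30) and 0.0506 when replicate 2 of Pxr-/- PCN was dropped (-0.31). Herpud1 kept an adjusted p of at most 0.05 in only 9 of 23 such fits, with values of 0.32 to 0.41 and adjusted p of 0.0154 to 0.0725. Those without which it was lost were WT CONT replicates 4, 5 and 6, WT PCN replicates 1, 2, 4 and 5, Pxr-/- CONT replicates 1, 2 and 4, and Pxr-/- PCN replicates 2, 3, 4 and 6. Hsp90b1, Pdia4, Sdf2l1 and Creld2 passed in all 23.

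The table of log2 values that the authors deposited gave nearly the same numbers in the same fit. For WT and Pxr-/- it gave -0.31 and -0.34 for Hspa5, -0.43 and -0.51 for Creld2, and 0.45 and 0.28 for Herpud1, with none of the 10 genes called. In that table the Hspa5 level (mean ± SD) was 15.11 ± 0.16 without and 14.80 ± 0.13 with PCN in WT, and 15.26 ± 0.28 without and 14.91 ± 0.28 with PCN in Pxr-/-. Over both genotypes the same 6 genes passed by adjusted p alone, from 0.00465 for Pdia4 to 0.0397 for Herpud1.

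Other ER chaperones and folding enzymes had mostly negative values as well. Of 20 tested genes, 19 were lower in WT with a median of -0.15 and none called, from -0.66 for Agr2 to 0.30 for Ero1b, an ER oxidase. In Pxr-/- 18 were lower with a median of -0.21, and 2 were called. These were Hyou1, the ER chaperone GRP170 (-0.63, SE 0.139, adjusted p = 0.0152), and Agr2, a disulfide isomerase of mucus-secreting cells (-0.86, SE 0.218, adjusted p = 0.0303). In WT, Hyou1 had -0.37 (adjusted p = 0.286) and Agr2 -0.66 (adjusted p = 0.205). Calr, the calcium-binding chaperone calreticulin, fell in Pxr-/- by adjusted p alone (-0.27, adjusted p = 0.0340), with all 6 PCN arrays below all controls, and had -0.18 in WT (adjusted p = 0.323). The Pxr-/- value of Calr no longer passed without Pxr-/- CONT replicates 5 (adjusted p = 0.0597) or 6 (0.0843) or Pxr-/- PCN replicates 1 (0.0859) or 5 (0.0959), with array weights (0.0604), with the replicate block (0.0564) or in either wash batch alone (0.799 and 0.118).

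Dnajb11, a BiP co-chaperone, had -0.24 in WT and -0.33 in Pxr-/- (adjusted p = 0.327 and 0.0565). Manf, a secreted ER stress protein, had -0.35 and -0.48 (adjusted p = 0.326 and 0.0559), and Pdia6, a disulfide isomerase, -0.19 and -0.25 (adjusted p = 0.552 and 0.192). Over both genotypes 7 of the 20 were lower by adjusted p alone, where 1162 of all 24176 gene names were lower and 1253 higher. They were Hyou1 (-0.50), Calr (-0.22), Dnajb11 (-0.29), Dnajc3 (-0.23), Manf (-0.42), Agr2 (-0.76) and Erp44 (-0.19). The Pxr-/- fold of Hyou1 fell under 1.5 without Pxr-/- CONT replicate 3 (-0.52) and without Pxr-/- PCN replicates 1 (-0.57) or 4 (-0.56). It also did so with normexp background correction (-0.54), array weights (-0.58) or the mean of all probes of the gene (-0.53). In wash batch 1 alone Hyou1 had -0.36 in Pxr-/- (limma, adjusted p = 0.754). Agr2 lost its call, with adjusted p of 0.0722 to 0.0872, without Pxr-/- CONT replicates 5 (-0.77) or 6 (-0.76) or Pxr-/- PCN replicates 1 (-0.81), 2 (-0.73) or 5 (-0.76). The call of Agr2 was also lost with array weights (limma, adjusted p = 0.0559) and in wash batches 1 and 2 alone (0.533 and 0.177). Manf gained a call without Pxr-/- PCN replicate 6 (-0.59, adjusted p = 0.0167).

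Goblet cell markers mostly had lower values in the same arrays. Of 11 tested, 10 were lower in WT with a median of -0.33 and none called, and 9 were lower in Pxr-/- with a median of -0.46, where Agr2 and Fcgbp, a mucus protein (-0.63, adjusted p = 0.00549), were called. Agr2 is in both lists. Of all 24176 tested gene names, 58 were called lower in Pxr-/-. Over both genotypes 8 of the 11 markers were lower by adjusted p alone, where 1162 of all 24176 gene names were. Among the 8 were Muc2, the main intestinal mucin (-0.41), and Spdef, a goblet cell transcription factor (-0.53), both named after their values had been seen. With the fold threshold Agr2 (-0.76) and Klk1 (-0.63) were called lower in that comparison, where 58 of all gene names were. Ccl9, a chemokine gene on the same list, was called higher (0.61, adjusted p = 0.0196), where 238 of all gene names were. Ccl9 had 0.54 in WT and 0.69 in Pxr-/- (adjusted p = 0.351 and 0.0807). The mean level of the 11 markers was 14.86 to 15.12 in WT CONT and 14.46 to 14.97 in WT PCN, and 14.61 to 15.15 and 14.26 to 15.00 in Pxr-/- CONT and PCN. In bulk tissue, fewer cells of a type and less RNA per cell cannot be told apart. The part of goblet cells in the chaperone values was not tested.

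Markers of other cell types were set beside these. In WT and Pxr-/-, the medians were 0.01 and 0.39 for Paneth cells (11 genes), -0.07 and 0.04 for plasma cells (9), 0.95 and 0.44 for B cells (7), 0.06 and 0.03 for enterocytes (13), and -0.03 and 0.02 for pancreatic acinar cells (6), with none called in either genotype. Paneth markers ran from -0.13 (Pla2g2a) to 0.29 (Mptx2) in WT and from 0.07 (Defa24) to 1.54 (Pnliprp2) in Pxr-/-. Plasma cell markers ran from -0.14 (Derl3) to 0.84 (Pou2af1) and from -0.29 (Prdm1) to 0.55 (Pou2af1). Mean levels of the plasma cell list were 10.93 to 11.40 in WT CONT, 10.91 to 11.38 in WT PCN, 10.90 to 11.39 in Pxr-/- CONT and 10.88 to 11.47 in Pxr-/- PCN, and overlapped throughout. B cell markers ran from 0.03 (Pax5) to 2.11 (Ms4a1) in WT and from -0.27 (Cd79a) to 0.63 (Ms4a1) in Pxr-/-. Mean levels of the B cell list were 7.28 to 7.54 in WT CONT and spread from 7.68 to 9.84 in WT PCN. In Pxr-/- CONT and PCN they were 7.27 to 7.64 and 7.39 to 8.62.

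Among neutrophil and macrophage markers (12 genes, medians 0.10 and 0.35), 8 were higher and 4 lower in WT, and 9 higher and 3 lower in Pxr-/-. The lowest in both was Ly6g, a neutrophil surface marker (-0.26 and -0.23, adjusted p = 0.371 and 0.247), and no marker was called lower. S100a8 rose by 1.64 in WT and 2.54 in Pxr-/- (adjusted p = 0.0397 and 0.000980) and S100a9 by 2.16 and 2.91 (adjusted p = 0.0163 and 0.00105). Cd68 rose by 0.60 in Pxr-/- (adjusted p = 0.00716). Of 10 smooth muscle markers (medians 0.13 and 0.29), 4 were lower in WT, from -0.36 for Smtn, and 1 in Pxr-/- (Mylk, -0.00687). Tagln, Cnn1 and Actg2 were called higher in Pxr-/- (0.59, 0.67 and 0.67). The part of these cell types in the chaperone values was not tested.

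**Figure D4:**
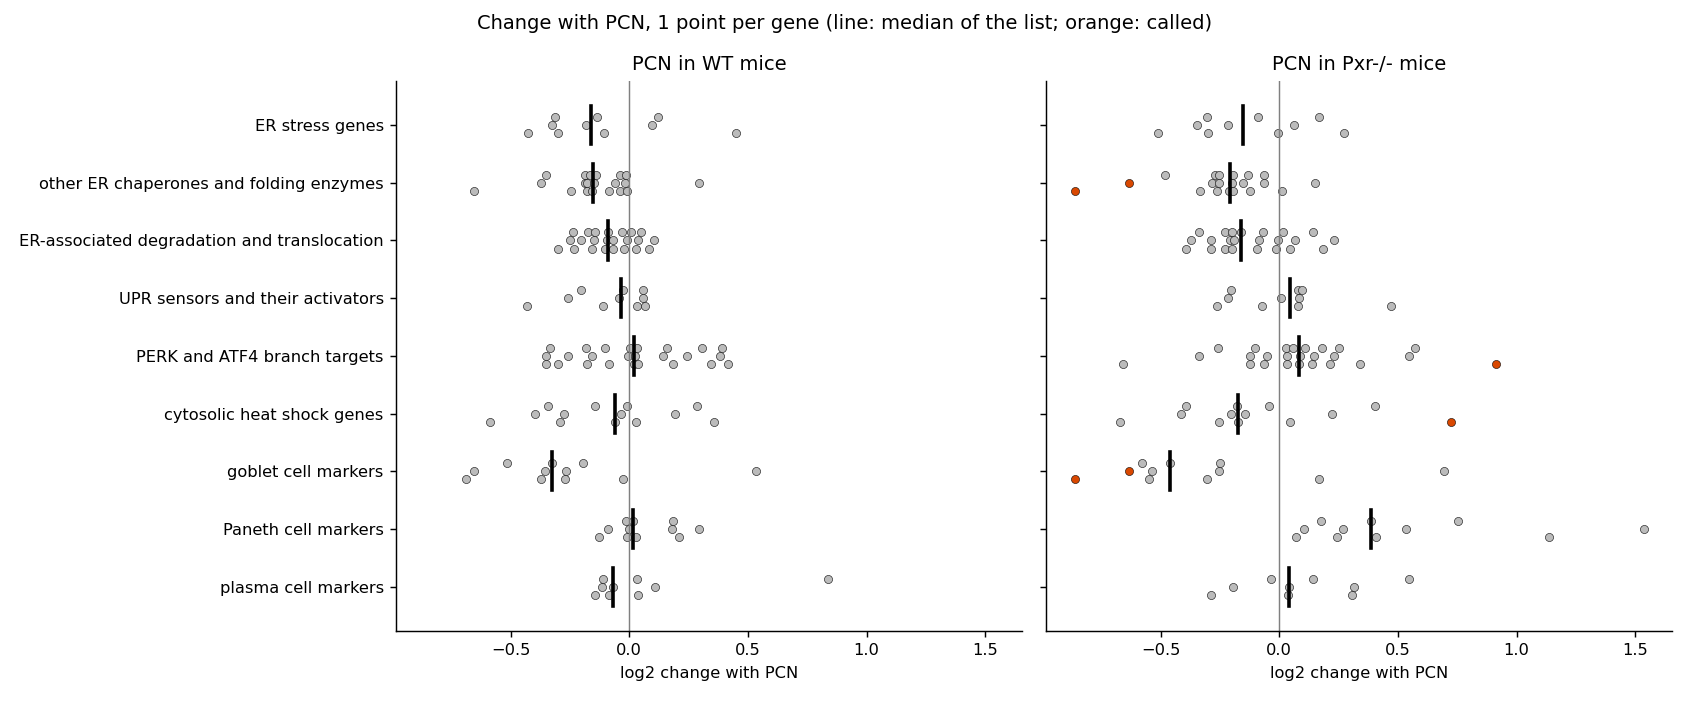
Log2 change with PCN in WT mice (left) and Pxr-/- mice (right), 1 point per gene, for the ER stress genes, 5 related gene lists and 3 lists of cell type markers. The black line is the median of a list and orange points were called. ER chaperones and goblet cell markers lie mostly below 0 in both genotypes, with medians of -0.15 and -0.33 in WT.

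The rest of the ER machinery gave few calls. Of 23 genes of ER-associated degradation and translocation, 17 were lower in each genotype, with medians of -0.09 in WT and -0.16 in Pxr-/- and none called. They ran from -0.30 (Ssr1, a translocon-associated protein) to 0.11 (Derl1) in WT, and from -0.39 (Ssr1) to 0.23 (Sec62) in Pxr-/-. By adjusted p alone, Ssr1, Ssr2 (-0.34) and Sec61b (-0.20) were lower and Sec62 higher in Pxr-/-. Of the 10 genes listed as UPR sensors and their activators, 6 were lower in WT (median -0.03) and 4 in Pxr-/- (median 0.04), with none called. Among the 10 is Eif2a, a translation initiation factor gene that is neither a sensor nor an activator. Ern2, the form of IRE1 found in gut epithelium, had -0.03 and 0.10 (adjusted p = 0.963 and 0.632). The lowest and highest were Creb3l1 (-0.43) and Eif2a (0.07) in WT, and Eif2ak3, the gene for PERK (-0.26), and Creb3l3 (0.47) in Pxr-/-.

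Targets of PERK and ATF4 had no common direction. Of 25 tested, 14 were higher in WT (median 0.02) and 17 in Pxr-/- (median 0.08). The lowest and highest in WT were Aldh18a1, a proline synthesis gene (-0.35, adjusted p = 0.0365), and Ppp1r15a (0.42), the latter the gene for the phosphatase subunit GADD34. In Pxr-/- they were Atf3 (-0.66, adjusted p = 0.294) and Trib3, a pseudokinase gene (0.91, SE 0.160, adjusted p = 0.00367), which was called and had all 6 PCN arrays above all controls. In WT Trib3 had 0.16 (adjusted p = 0.784), and no gene of this list was called in the interaction. In wash batches 1 and 2 alone Trib3 had 0.92 and 0.91 in Pxr-/- (limma, adjusted p = 0.418 and 0.0530). Cebpb, a transcription factor gene, passed by adjusted p alone in both genotypes (0.39 and 0.34, adjusted p = 0.0436 and 0.0416).

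Of 13 genes listed as cytosolic heat shock genes, which answer to another system, 9 were lower in each genotype. The medians were -0.06 in WT and -0.17 in Pxr-/-. This list also holds the mitochondrial chaperonin genes Hspd1 and Hspe1 and the transcription factor gene Hsf1. Hsph1, a cytosolic HSP110, had -0.59 and -0.67 (adjusted p = 0.280 and 0.0847), and was called over both genotypes (-0.63, adjusted p = 0.0154). Hspa1a was the highest in WT (0.36). Hspb1, a small heat shock protein gene, was called higher in Pxr-/- (0.72, adjusted p = 0.0293). It lost the call, with adjusted p of 0.0503 to 0.0861, without Pxr-/- CONT replicates 1 (0.68), 5 (0.73) or 6 (0.66) or Pxr-/- PCN replicates 1 (0.75), 2 (0.71) or 5 (0.61). In wash batches 1 and 2 alone the adjusted p of Hspb1 in Pxr-/- was 0.661 and 0.135 (limma).

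Whether P450 and BiP levels went together mouse by mouse was examined inside the groups, with each value centred on its group mean (23 arrays). Hspa5 had a Pearson r of -0.0064 with Cyp2b10, 0.105 with Cyp3a11 and 0.0380 with Cyp2c55, and a Spearman rho of -0.0959, 0.0376 and 0.0583 (permutation test, p of 0.971, 0.555 and 0.891 for r and 0.641, 0.859 and 0.806 for rho, adjusted over 12 relations 0.971, 0.666 and 0.971, and 0.770, 0.859 and 0.859). Within batches 1 and 2, r was -0.195 and 0.219 with Cyp2b10, -0.160 and 0.266 with Cyp3a11, and -0.222 and 0.670 with Cyp2c55, none of which passed after adjustment. A relation was therefore not detectable with this number of mice.

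With other members of the list, Hspa5 had an r of 0.881 for Creld2 (permutation p = 2e-05, adjusted 0.00024, rho 0.746, p = 6e-04, adjusted 0.0072), 0.642 for Hsp90b1 (p = 0.00162, adjusted 0.00972, rho 0.650, p = 0.0017, adjusted 0.0102) and 0.633 for Sdf2l1 (p = 0.00654, adjusted 0.0262, rho 0.447, p = 0.0582, adjusted 0.123). For the other 6 members r was 0.147 (Ddit3) to 0.552 (Xbp1), with adjusted p of 0.0579 to 0.666 in the permutation test. Among these Herpud1 had 0.459 (adjusted p = 0.0735), and 0.680 with WT PCN left out (permutation test, adjusted p = 0.0184). In batches 1 and 2 alone Herpud1 had -0.069 and 0.859 (permutation test, adjusted p = 0.936 and 0.0939). Without the 2 arrays farthest from the median of Hspa5, Pxr-/- CONT replicates 3 and 6, r was 0.839 for Creld2, 0.724 for Hsp90b1 and 0.552 for Sdf2l1, and the last no longer passed (permutation test, adjusted p = 0.118). Within batches 1 and 2, r was 0.913 and 0.826 for Creld2, 0.634 and 0.589 for Hsp90b1, and 0.559 and 0.610 for Sdf2l1, and none passed the adjusted permutation test within a batch alone. Hsp90b1 lost its call without Pxr-/- CONT replicate 4 (0.552) or Pxr-/- PCN replicate 6 (0.553), and Sdf2l1 without those (0.579 and 0.539), WT CONT replicate 2 (0.598) or Pxr-/- CONT replicate 6 (0.577). Arrays share hybridization and normalization, so these values describe how signals moved together and not a shared control.

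**Figure D5:**
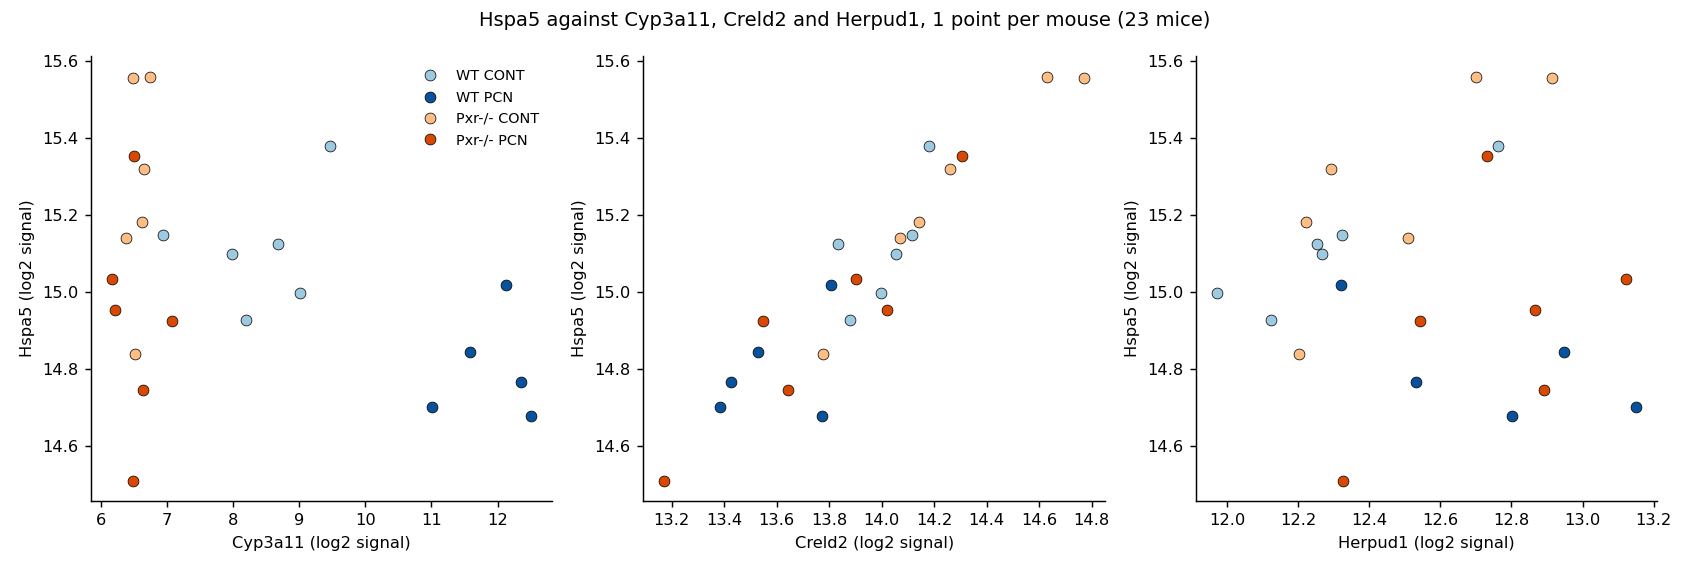
Log2 signal of Hspa5 in each of the 23 mice against that of Cyp3a11 (left), Creld2 (middle) and Herpud1 (right), coloured by group. Cyp3a11 separates WT PCN (11.01 to 12.51) from all other mice, Hspa5 and Creld2 lie along a line across groups, and Herpud1 does not follow Hspa5 across groups. With values centred on the group mean, r of Hspa5 with Herpud1 was 0.459 (permutation test, adjusted p = 0.0735).

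Over the 23 arrays, without centring, the genes most like Hspa5 among 16889 were Creld2 (Pearson r 0.932), Dnajb11 (0.912), Ube2f (0.907), 6430548M08Rik (0.906) and Manf (0.901), of which Creld2 is 1 of the 10 and Dnajb11 and Manf are ER chaperone genes. These r values are descriptions over arrays of all 4 groups and carry no test. Sdf2l1 was at position 83 (0.795), Hsp90b1 at 120 (0.781), Pdia4 at 315 (0.702) and Xbp1 at 688 (0.633). Atf4 (0.370), Dnajb9 (0.254), Herpud1 (-0.0133) and Ddit3 (-0.0227) were far down the list. Ube2f, a ubiquitin-like conjugating enzyme gene, had -0.19 in WT and -0.27 in Pxr-/- (adjusted p = 0.551 and 0.163), and 6430548M08Rik had -0.32 and -0.40 (adjusted p = 0.334 and 0.0764).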

How the data were processed

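Single-colour Agilent arrays of mouse ileum RNA were scanned by the authors (Agilent Feature Extraction 10.10.1.1, named in the submitters' processing notes). Per the file headers the scanner values are intensity, the linear brightness of a spot. The authors also deposited a log2 table (37161 probes), which was filtered, corrected for wash batch and CrossNorm normalized per the study's methods, with a median of 8.02 in every column.

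Here the median signal was put on the log2 scale, control spots and outlier spots were left out, spots of a probe were averaged, and 23 arrays were quantile normalized (R 4.3.3, limma 3.58.1, data.table version 1.17.8). Probes entered the tests if 50% or more of the arrays in any group were well above background (37591 of 56605 probes). A single fit by limma (lmFit and eBayes, 2-sided) held the 4 groups and the wash batch. Benjamini-Hochberg adjustment ran over all tested probes, and a call needed adjusted p ≤ 0.05 and fold change > 1.5. Correlations used 1e+05 resamples within groups, with 1e-05 as the smallest p these can give. The scripts were tested on simulated data.

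The scanner values, rather than the authors' table, carry the results because they include each spot's background call, and that deposited table served as an alternative. Others were signal, normalization, filter, slide, wash batch, array weights, probe choice, replicate number and each array left out. The 10 genes and all lists were chosen with earlier results of these data known. Named genes were the 10, Cyp2b10, Cyp3a11, Cyp2c55, Por, Dnajb11, Hyou1, Pdia6, Manf, Calr and Ern2, and the 5 most like Hspa5. Called genes of each list (at most 3) were also named, as were the lowest and highest of most lists. Some genes that passed by adjusted p alone were named too. The number of arrays limits the precision. Overlap between groups is a description only, since its share over all tested probes was not counted. Replicate numbers do not pair samples. Positions of probes follow the array annotation (build mm9); whether they lie in an exon or UTR was not analysed here.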

Additional observations from a re-analysis of the deposited data

Results flagged for a closer look

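Among the values above, 3 of 56 gene and group combinations held an array far from the others of its group by Dixon's criterion, and chance gives about 1 in 20. Xbp1 read 15.24 in WT CONT replicate 4, where the nearest array read 14.88. Atf4 read 15.78 in Pxr-/- PCN replicate 4, where the nearest read 15.35. Por read 13.62 in Pxr-/- PCN replicate 5, where the nearest read 13.26.

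The effect of PCN differed between the genotypes for Cyp2b10, by 3.89, and for Cyp3a11, by 3.58 (limma interaction, adjusted p = 0.000875 for each), with a larger rise in WT. No ER stress gene met this criterion.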

How the results depend on the processing

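The fit was repeated under 15 alternatives and without each of the 23 arrays, and the correlations under 11. None of the 10 genes was called for PCN in WT, the interaction or either genotype comparison under any of them. For PCN in Pxr-/- the count was 0 to 1 with arrays left out, and for the mean over both genotypes it was 1 in wash batch 2 only (Creld2) and 6 with no fold threshold. Passing by adjusted p alone over both genotypes were 0 in batch 1 only, 3 in batch 2 only, and 4 to 6 otherwise, arrays left out included. Batches hold 11 and 12 arrays. With the replicate block the counts were 0 in every comparison and 5 by adjusted p alone, without Herpud1 (adjusted p = 0.0730). Same-numbered arrays had a median correlation of -0.033 (-0.205 to 0.434), against -0.00185 for others, so the numbers gave no pairing.

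Correlations of Hspa5 that passed numbered 3 in the main setting, 7 after median centring, 0 in batch 1 only, 0 in batch 2 only, 7 with WT PCN left out, 1 with Pxr-/- PCN left out, and 1 to 7 without single arrays (7 without WT PCN replicate 3, 1 without Pxr-/- CONT replicate 4 or Pxr-/- PCN replicate 6).

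Signs changed for the values that follow, and the cause was not tested. In batch 1 only, changes were -0.13 for Ddit3 in WT, 0.12 for Xbp1 and 0.19 for Atf4 in Pxr-/-, 0.0226 for Xbp1 over both genotypes and -0.25 for the Herpud1 interaction. In batch 2 only, they were -0.0738 for Dnajb9, 0.00641 for Atf4 and 0.0504 for Ern2 in WT, -0.19 for Dnajb9 and -0.00377 for Ern2 in Pxr-/-, -0.13 for Dnajb9 over both genotypes and 0.21 for the Atf4 interaction. In Pxr-/-, normexp gave 0.00859 for Atf4, slide as a fixed block 0.24 for Cyp3a11, and the mean of all probes -0.00930 for Dnajb9 and -0.0680 for Ern2. Slide as a fixed block gave 0.00178 for the Atf4 interaction. Without single arrays, ranges were -0.0654 to 0.0633 for Ern2 in WT, and in Pxr-/- -0.0985 to 0.0381 for Atf4, -0.0468 to 0.145 for Dnajb9 and -0.167 to 0.0257 for Cyp3a11, and -0.158 to 0.0342 for Dnajb9 in Pxr-/- against WT without PCN.

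For Hspa5 with Cyp2b10, r was 0.094 after median centring, 0.053 centred within batch, 0.219 in batch 2 only, 0.066 without the 2 farthest arrays, 0.123 without Pxr-/- CONT, 0.044 without Pxr-/- PCN and -0.130 to 0.085 without single arrays. With Cyp2c55 it was -0.0047 in the authors' table, -0.021 after median centring, -0.222 in batch 1 only, -0.0077 without the 2 farthest arrays, -0.041 without WT CONT, -0.035 without Pxr-/- CONT and -0.083 to 0.227 without single arrays. With Cyp3a11 it was -0.160 in batch 1 only and -0.045 to 0.169 without single arrays. In batch 1 only it was -0.077 with Pdia4 and -0.069 with Herpud1.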
